A study of Mus musculus with 98 samples.

Results

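The keratin genes were read in the epithelium and the mesothelium of the mouse thymus. They were chosen by symbol as all genes named Krt followed by a number alone, which gave 43 of the 20760 genes in the newborn single-cell counts, and 3 keratins with a letter after the number were left out by this rule. Of the 43, 20 encode type I keratins and 22 encode type II keratins, while Krt222 is a keratin-like gene of neither type. By the tissues in which they are best known, 6 were placed with simple epithelium, 4 with the basal layer, 11 with suprabasal and mucosal layers, 16 with the hair follicle and 6 elsewhere. All 43 had an entry in the bulk counts and 41 in the counts of the age series, where Krt31 and Krt72 were not analysed.

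Single Ter119-CD45- cells, fixed with RNAprotect, came from P0 mice of the genotype Tbx1+/- Crkl+/- (n = 3 libraries) and from their wild-type littermates (WT, n = 3), and 9083 of these 21451 cells carried a label of thymic epithelial cells (TEC) in the authors' annotation. The Tbx1 allele is a lacZ insertion and the Crkl allele a germline null, so the alleles were carried in every tissue and not in the epithelium alone. RNA of sorted WT cells was sequenced in bulk with an ultra-low input protocol, and the 36 libraries used here were cortical TEC (cTEC) and medullary TEC (mTEC) at P0 and at 4 weeks, and the mTEChi and mTEClo fractions at 4 weeks, with 6 libraries in each group. Mesothelial cells came from 8 libraries of Ter119-CD45-EpCAM- cells of WT mice from E12.5 to 4 weeks of age (W4), with E13.5, E16.5 and P0 between, a sort that removes TEC. The TEC gates used the lectin UEA-1, Ly51, MHCII and CD80, so no keratin took part in the sort.

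Keratins are the intermediate filament proteins of epithelial cells. A filament is built from pairs of 1 type I and 1 type II protein, so a cell that makes a member of one type needs a partner of the other. Krt8 with Krt18 or Krt19 is the pair of simple epithelia, Krt5 with Krt14 that of the basal layer of stratified epithelia, and Krt1 with Krt10 that of the differentiating epidermis. In the thymus, antibodies to Krt8 and Krt18 are used to stain the cortex and antibodies to Krt5 and Krt14 the medulla. Mature mTEC transcribe many genes of peripheral tissues under the control of Aire and other factors, a process that exposes developing T cells to the antigens of those tissues.

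The genes lie in 2 clusters of the mm10 genome (GRCm38). On chromosome 11, 19 type I genes and Krt222 lie together, and all 22 type II genes lie on chromosome 15. Krt18 is the exception among the type I genes, since it lies on chromosome 15 at 102028216 to 102032026 on the plus strand, beside its partner Krt8, which ends at 102004342 and is read from the minus strand. RefSeq promoters (GRCm38.p6), each with 250 bases before and 50 bases after the start of the gene, were at hand for 29 of the 43 members. The core promoter motif TATAAA was searched on both strands, and it began 21 to 40 bases before the start on the strand of the gene in 10 of the 29 keratin promoters (34.5%) and in 1.99% of all 32851 promoters. Those 10 were Krt10, Krt12, Krt20, Krt25, Krt28, Krt31, Krt32, Krt71, Krt73 and Krt76. Anywhere in the 300 bases, TATAAA was found in 14 of the 29 (48.3%) and in 13.6% of all promoters. The promoters of the cortical pair Krt8 and Krt18 and of 3 keratins that were read in mTEC are shown here as examples. These 3 are all among the 10 with the motif in that window. Of the 25 keratins with a promoter that were higher in mTEC at P0, only 9 (36%) had it there. Capitals mark TATAAA, and where it lay in that window the distance from its first base to the start is given.
Krt8, chr15:102004293-102004592, minus strand: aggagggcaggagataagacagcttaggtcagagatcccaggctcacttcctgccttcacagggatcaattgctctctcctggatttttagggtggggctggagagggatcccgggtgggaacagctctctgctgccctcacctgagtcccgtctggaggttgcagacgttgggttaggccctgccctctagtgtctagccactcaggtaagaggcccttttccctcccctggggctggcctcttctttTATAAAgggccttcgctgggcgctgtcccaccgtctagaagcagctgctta
Krt18, chr15:102027966-102028265, plus strand: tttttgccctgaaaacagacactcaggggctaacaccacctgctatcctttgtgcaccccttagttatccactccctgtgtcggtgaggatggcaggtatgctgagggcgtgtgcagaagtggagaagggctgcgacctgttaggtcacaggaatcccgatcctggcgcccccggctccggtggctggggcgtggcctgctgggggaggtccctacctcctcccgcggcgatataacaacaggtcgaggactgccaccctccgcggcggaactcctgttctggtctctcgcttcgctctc
Krt20, chr11:99438104-99438403, minus strand, motif 29 bases before the start: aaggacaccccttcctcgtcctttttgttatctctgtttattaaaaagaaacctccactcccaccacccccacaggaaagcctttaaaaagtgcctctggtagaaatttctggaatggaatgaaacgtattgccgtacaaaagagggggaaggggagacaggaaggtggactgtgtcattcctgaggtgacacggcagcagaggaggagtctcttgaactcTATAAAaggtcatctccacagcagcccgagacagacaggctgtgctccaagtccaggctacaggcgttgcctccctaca
Krt71, chr15:101743048-101743347, minus strand, motif 40 bases before the start: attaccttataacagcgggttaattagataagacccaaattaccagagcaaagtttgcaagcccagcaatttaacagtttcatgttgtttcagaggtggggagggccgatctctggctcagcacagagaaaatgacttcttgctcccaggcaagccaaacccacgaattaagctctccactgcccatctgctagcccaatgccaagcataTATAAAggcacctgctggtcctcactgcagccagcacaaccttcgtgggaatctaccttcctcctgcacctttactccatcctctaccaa
Krt73, chr15:101802311-101802610, minus strand, motif 30 bases before the start: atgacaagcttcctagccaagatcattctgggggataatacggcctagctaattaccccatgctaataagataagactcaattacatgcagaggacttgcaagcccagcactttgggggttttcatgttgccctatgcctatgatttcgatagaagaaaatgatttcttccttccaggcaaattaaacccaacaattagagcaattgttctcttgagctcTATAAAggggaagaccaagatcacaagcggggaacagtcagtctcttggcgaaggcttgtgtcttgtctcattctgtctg
In the Krt8 promoter TATAAA begins 1 base before the annotated start and so lay outside the window, and the Krt18 promoter holds none. A match to these letters describes the sequence only, and no binding was measured.

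The newborn libraries held 4978011 to 31418527 UMIs (unique molecular identifiers, each counted as 1 transcript), with a median of 2391 to 4686 UMIs per cell, and 44 cell barcodes occurred in more than 1 library. Levels are given in counts per 1000000 (CPM) of the UMIs summed over the cells of a label in a library, as the mean ± SD over libraries, where a library was used if it held 5 or more cells of that label. Means of levels and of shares of cells take the libraries of both genotypes together, and the genotypes are set apart further on. The labels were made by the authors from the same counts, so differences between labels are described without a test. The 7 cTEC markers summed to 18347 to 33263 CPM in perinatal cortical TEC (PcTEC) and to 2043 to 5351 CPM in mature medullary TEC (MmTEC), and Aire was at 1338 to 2596 CPM in MmTEC and at 2.73 to 13.4 CPM in PcTEC. Keratin UMIs were also counted in cells that should lack them. Capillary endothelium (EnC) showed 607 CPM of Krt18, 325 CPM of Krt8 and 230 CPM of Krt17, and 4.72% ± 0.87 of its cells held a UMI of the scarcer keratins described further on. The thymocyte label (Thy) held more, with 2377 ± 638 CPM of all keratins against 1263 ± 400 CPM in EnC. Krt8 and Krt18 took 77.1% of the keratin UMIs of Thy. A level near the values of EnC or Thy cannot be told apart from free RNA.

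Krt18 and Krt8, the simple epithelial pair, made up most keratin transcripts of the cortical labels. Krt18 stood at 5435 ± 1477 CPM in mature cortical TEC (McTEC), at 4010 ± 1321 CPM in PcTEC, at 2278 ± 771 CPM in intertypical TEC (ItTEC) and at 1006 ± 255 CPM in MmTEC (n = 6 libraries each). Krt8 stood at 3176 ± 827, 2497 ± 714, 1317 ± 390 and 1331 ± 274 CPM in the same order. The 6 MmTEC libraries held 521 to 1205 CPM of Krt18, and every PcTEC library lay above them at 2229 to 5681 CPM. The lowest MmTEC library lay under the Krt18 mean of EnC. Thy held more keratin RNA than EnC, with 1.66 ± 0.20 UMIs of Krt18 per UMI of Krt8. Krt18 in MmTEC thus cannot be told apart from free RNA. McTEC and PcTEC overlapped for both genes. Together the 2 genes took 77.9% of the keratin UMIs of McTEC, 77.0% of those of PcTEC, 56.8% of those of ItTEC and 52.4% of those of MmTEC.

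The pair was not held in a fixed ratio. There were 1.59 ± 0.12 UMIs of Krt18 per UMI of Krt8 in PcTEC, 1.71 ± 0.12 in McTEC and 1.71 ± 0.22 in ItTEC, but 0.76 ± 0.18 in MmTEC (range 0.49 to 0.98). Structural TEC (sTEC), with 3 libraries, stood lowest at 0.47 ± 0.10, with Krt8 at 3014 ± 623 CPM and Krt18 at 1396 ± 208 CPM. The order of the 2 genes was thus turned in MmTEC and sTEC, where Krt8 was the higher in every library, whereas Krt18 was the higher in every library of PcTEC, McTEC, ItTEC and proliferating TEC (PrTEC). In EnC the ratio was 1.86 ± 0.28. All type I UMIs stood to all type II UMIs at 1.90 ± 0.12 in PcTEC, 1.94 ± 0.26 in ItTEC, 1.40 ± 0.23 in MmTEC and 0.44 ± 0.07 in sTEC.

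The basal keratins were highest in ItTEC. Krt5 stood at 700 ± 260 CPM there, at 259 ± 95.9 CPM in McTEC, at 236 ± 124.8 CPM in PrTEC, at 118.8 ± 23.3 CPM in PcTEC and at 97.6 ± 27.1 CPM in MmTEC. Krt14, its type I partner, stood at 460 ± 218 CPM in ItTEC and at 195 ± 121 CPM in PrTEC, and at 114.97 ± 40.9, 66.1 ± 23.1 and 59.95 ± 13.2 CPM in MmTEC, McTEC and PcTEC. In PrTEC the genotypes differed for Krt14, with 304 ± 30 CPM in WT and 87.0 ± 17.6 CPM in Tbx1+/- Crkl+/-, so the pooled mean describes neither. The lowest ItTEC library (191.2 CPM of Krt14) lay above every library of MmTEC, McTEC and PcTEC, but PrTEC reached 329 CPM in a WT library. For Krt5 the lowest ItTEC library (336 CPM) lay under the highest of McTEC (441 CPM) and of PrTEC (428 CPM). Krt15, a keratin of basal cells and hair follicle stem cells, was low throughout, with 15.8 ± 15.8 CPM in ItTEC. Krt17, which is induced in basal cells of skin appendages and in wounds, differed from these, with 1808 ± 615 CPM in ItTEC, 1651 ± 554 in McTEC, 1461 ± 427 in PcTEC and 1046 ± 353 in MmTEC, and these ranges overlapped. Krt7, a simple epithelial type II keratin, reached 395 ± 114 CPM in McTEC and 607 ± 328 CPM in sTEC, against 98.1 ± 24.8 CPM in MmTEC.

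**Figure D1:**
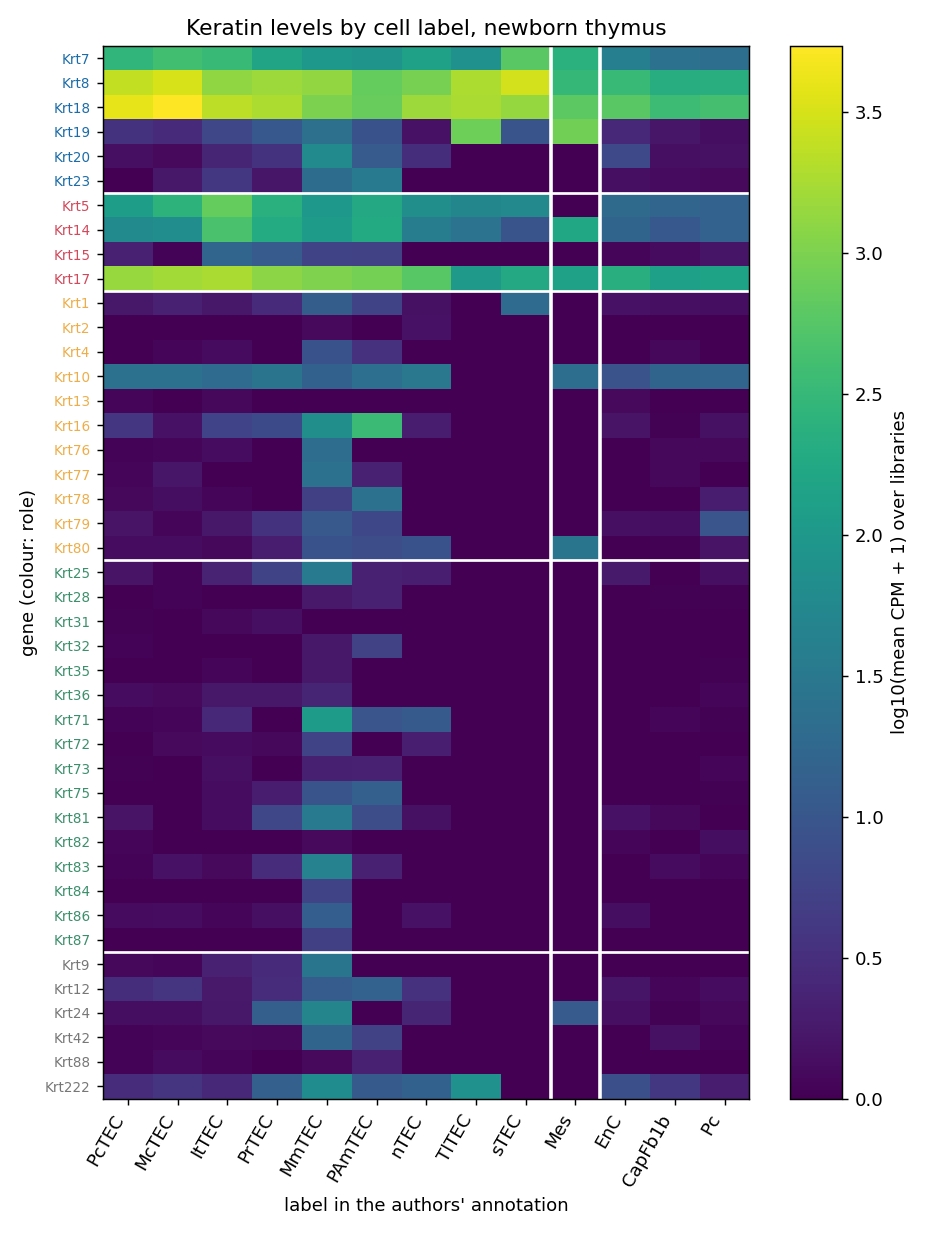
Keratin levels in newborn thymus, as log10 of the mean CPM plus 1 over libraries (colour), for the 43 genes (rows, grouped by role) in 13 labels (columns: 9 TEC labels, mesothelium Mes, endothelium EnC, fibroblasts CapFb1b and pericytes Pc). Krt8 and Krt18 are bright in every TEC label, and MmTEC is the column in which 41 of the 43 genes hold a UMI.

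Co-detection of Krt5 and Krt8 in single cells followed the same order as Krt5. After thinning each cell to 2000 UMIs, which left out shallower cells (60.2% of the ItTEC and 81.95% of the PcTEC were kept), both genes were found in 39.3% ± 7.2 of the ItTEC (31.5 to 49.2% by library), in 21.3% ± 5.9 of the McTEC, in 15.4% ± 6.5 of the PrTEC, in 12.03% ± 1.45 of the PcTEC and in 10.5% ± 4.0 of the MmTEC. The share was 1.38% ± 0.97 in EnC, 0.80% ± 0.62 in the fibroblast label CapFb1b and 2.75% ± 2.55 in Thy. The share with a UMI of Krt8 alone or with Krt5 was 32.7% in EnC, 51.9% in Thy and 92.2% in PcTEC. A Krt8 share near 32.7 to 51.9% thus cannot be told apart from free RNA. Krt5 without Krt8 was found in 7.40% of the ItTEC and in 0.49% of the PcTEC, against 1.71% of the EnC and 3.13% of the Thy. Without thinning, ItTEC stood at 42.4% ± 11.9, and at 1000 UMIs per cell the share was 23.2% in ItTEC and 5.23% in MmTEC.

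The remaining 36 keratins, that is all but Krt5, Krt7, Krt8, Krt10, Krt14, Krt17 and Krt18, were scarce in most TEC labels and higher in MmTEC. This division was made after the levels had been seen. The 36 genes summed to 695 ± 519 CPM in MmTEC (171 to 1465 CPM), to 78.99 ± 44.8 CPM in PrTEC, to 43.4 ± 23.8 CPM in ItTEC, to 16.4 ± 3.9 CPM in PcTEC and to 19.6 ± 5.4 CPM in EnC. Smaller labels also held them, with 515 ± 980 CPM in post-Aire mTEC (0 to 2499 CPM, the highest in WT replicate 2 with 13 cells). The sum was 900.5 CPM in the single library of tuft-like TEC and 902 ± 439 CPM in newborn mesothelium (n = 3). Krt19 made up most of the sum in the last 2. Of the 36, 34 had at least 1 UMI in the 518 MmTEC, which held 2229247 UMIs, and 29 had one in the 4826 PcTEC, which held 20821924. The most abundant by mean were Krt71, a keratin of the inner root sheath of the hair follicle, with 114.5 ± 194 CPM, Krt16, which pairs with Krt6 proteins in stressed epidermis, with 69.3 ± 95.8 CPM, Krt222 with 65.2 ± 27.1 CPM, Krt20, a keratin of intestinal and urothelial surface cells, with 59.2 ± 61.1 CPM, and Krt24 with 48.3 ± 32.2 CPM. For Krt71, Krt16 and Krt20 the SD was as large as the mean or larger. These means pool both genotypes, and the order differed between them. Krt71 stood at 10.4, 490 and 160 CPM in the 3 WT libraries and at 0, 26.5 and 0 CPM in the others. In WT, Krt16 stood at 129.7 CPM on average, Krt20 at 108.5 CPM and Krt222 at 83.6 CPM, and in Tbx1+/- Crkl+/- Krt222 was the highest at 46.7 CPM, with Krt16 at 8.90 and Krt20 at 9.84 CPM.

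In MmTEC these transcripts were divided unevenly among cells. At least 1 of the 36 genes was found in 49.04% ± 16.3 of the MmTEC by library and in 5.50% ± 1.65 of the PcTEC. Counted over all 518 MmTEC, 252 cells had none, 126 had 1, and 140 (27.0%) had 2 or more of the 36 genes. The highest number was 14 in a single cell, which held 16992 UMIs in all and 370 of these genes. Most MmTEC with any of the 36 held 1 to 4 of them. Krt222 was the most widely found of the 36, in 85 MmTEC, followed by Krt25 in 49, Krt24 in 42 and Krt20 in 37. Krt71 was found in only 15 MmTEC, and 224 of its 359 UMIs came from 1 cell. The same unevenness held for Krt81, of whose UMIs 57.5% came from 1 cell, while for Krt222 the highest cell gave 6.75% of its UMIs. The level of Krt71 thus rests on few cells.

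The smaller labels rest on few cells. In post-Aire mTEC (PAmTEC) the mean of Krt16 was 347 CPM, but 4 of the 6 libraries stood at 0 and 41 of its 88 UMIs came from 1 cell. In tuft-like TEC (TlTEC), where only 1 library held 5 or more of the 21 cells, Krt19 stood at 823 CPM and Krt222 at 77.2 CPM, and 25 of the 38 UMIs of Krt19 came from 1 cell. sTEC (32 cells) held Msln at 194 to 1752 CPM, but the other 5 mesothelial markers were at 0 in these libraries and Krt19 was at 8.37 CPM, the level of 1 UMI in 1 library that was counted. Newborn mesothelium (Mes, 21 cells) held 864 ± 453 CPM of Krt19 and no UMI of Krt5.

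**Figure D2:**
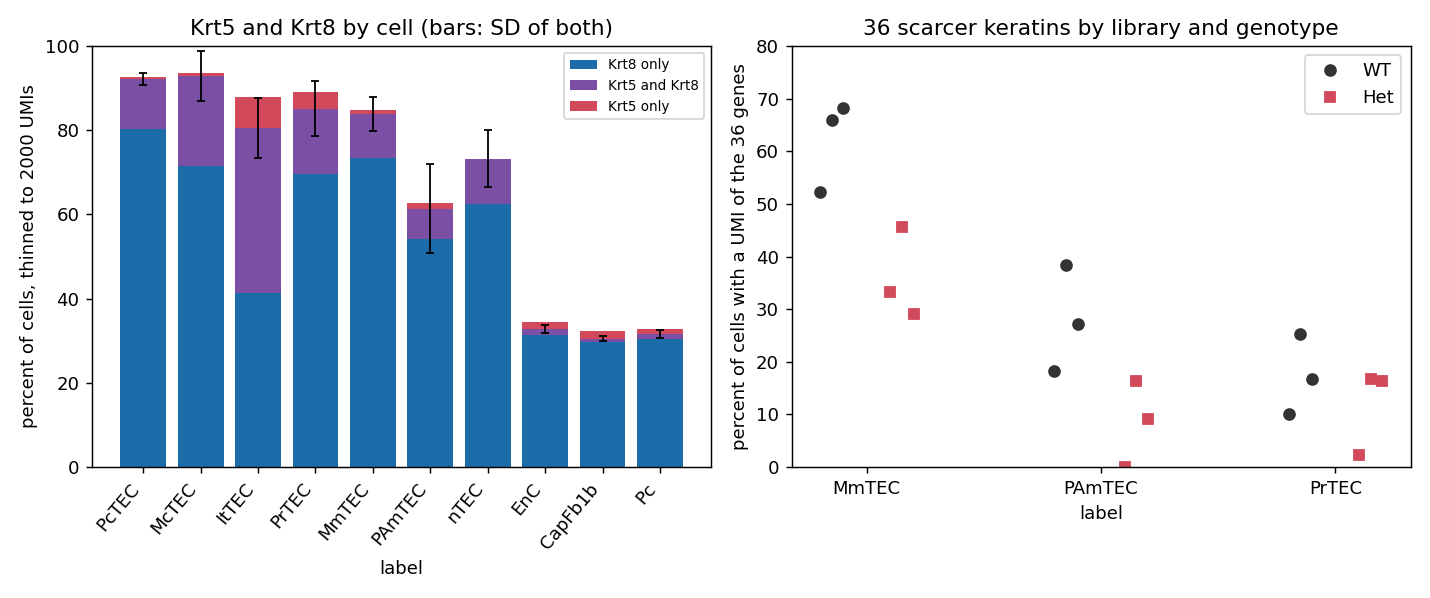
Left, the mean percent of cells (y axis, thinned to 2000 UMIs) with a UMI of Krt8 only, of Krt5 and Krt8 or of Krt5 only in 10 labels, where the black bars are the SD over libraries of the share with both. Right, the percent of cells with a UMI of the 36 scarcer keratins in each library of MmTEC, PAmTEC and PrTEC, by genotype. The share with both genes is highest in ItTEC (39.3%), and the 3 WT libraries of MmTEC (52.2 to 68.3%) lie above the 3 Tbx1+/- Crkl+/- libraries (29.0 to 45.5%).

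In bulk libraries, which held 5785352 to 14454727 counts on genes, mTEC were set against cTEC to ask how the keratins of cortex and medulla differ. All keratins together took 20517 ± 3643 CPM in cTEC at P0 and 7766 ± 970 CPM in mTEC at P0, and 24735 ± 3134 and 9915 ± 1721 CPM at 4 weeks. The fall in mTEC came from the most abundant genes, while most other members were higher in mTEC. Of the 43 genes, 41 passed the filter on low counts, which Krt31 and Krt88 did not. At P0, 37 members were higher and 3 were lower in mTEC (edgeR quasi-likelihood test with Benjamini-Hochberg adjustment, threshold 0.05), where 29.2% and 8.28% of all 18847 genes tested were called higher and lower. At 4 weeks the counts were 33 higher and 3 lower, against 26.4% and 11.5% of all genes. With only the 2 groups fitted at 4 weeks, 27 members passed the filter, and 21 were higher and 3 lower. That fit called 3564 of 14153 genes, 62.8% of them higher. The median log2 fold change was 7.23 over the members and 0.35 over all genes at P0, and 5.76 and 0.24 at 4 weeks. But a member at 0 in cTEC could pass the filter only because of its level in mTEC. The counts of higher members and these medians are therefore a description. With the 21 members at 0 in all cTEC libraries at P0, and the 6 at 4 weeks, set at the bound that a floor of 3 counts over the group gives, the median was 6.30 at P0 and 5.76 at 4 weeks. In bulk samples, fewer cells of a kind and less RNA per cell cannot be told apart.

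The 3 members lower in mTEC were Krt18, Krt8 and Krt7. Krt18 stood at 10935, 12527 and 16795 CPM (lowest, median and highest of 6 libraries) in cTEC at P0 and at 1724, 1995 and 2758 CPM in mTEC. The mean was thus 6.13-fold higher in cTEC at P0 (log2 fold change of mTEC over cTEC -2.56 ± 0.16, SE, edgeR adjusted p = 1.02e-14) and 6.36-fold higher at 4 weeks. Krt8 stood at 3844, 5128 and 7337 CPM in cTEC at P0 and at 2000, 2252 and 2582 CPM in mTEC. Its mean was 2.42-fold higher in cTEC at P0 and 2.68-fold higher at 4 weeks, and the libraries of the 2 populations did not overlap for either gene at either age. Krt7 was 2.30-fold higher in cTEC at P0 (415 ± 93 against 181 ± 46 CPM) and 1.52-fold higher at 4 weeks (edgeR adjusted p = 0.0257), a call that was lost under DESeq2, DESeq2 size factors, no filter, and without mTEC replicate 3.

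Divided by exon length, Krt18 exceeded Krt8 by 3.29 ± 0.47 times in cTEC and by 1.26 ± 0.12 times in mTEC at P0, and by 4.04 ± 0.29 and 1.74 ± 0.17 times at 4 weeks. The ratio of the pair was therefore lower in mTEC than in cTEC at both ages, in every library. It did not fall under 1 in bulk mTEC, unlike in the single MmTEC. UMIs are read from the end of the transcript, and bulk mTEC were sorted by surface markers and not by label. The part of either in this was not tested.

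The other simple epithelial keratins went the opposite way. Krt20 was at 0 in all 6 cTEC libraries at P0 and at 190.9, 305 and 434 CPM in mTEC, which is at least 6449-fold higher against a floor of 3 counts over the group. At 4 weeks Krt20 was at 3.43 ± 3.40 CPM in cTEC and at 334 ± 193 CPM in mTEC, where the lowest library held 73.98 CPM. Krt19 stood at 0 to 2.61 CPM in cTEC at P0 and at 34.5 to 60.9 CPM in mTEC, and Krt23, a simple epithelial type I keratin, at 0 in cTEC and at 17.7 to 62.04 CPM in mTEC. Both were called higher in mTEC at both ages, with overlap between the groups at 4 weeks.

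Of the 4 basal keratins, 3 were called higher in mTEC at P0 and 2 at 4 weeks. Krt14 was 4.70-fold and Krt5 2.03-fold higher in mTEC at P0, with no overlap for either. At 4 weeks neither was called (edgeR adjusted p = 0.263 for Krt14 and 0.0512 for Krt5, with groups that overlap), but Krt5 was called under DESeq2, its size factors, no filter, the label prefix as a term, a replicate block, and without mTEC replicate 3. Krt17 showed the reverse, with 1513 ± 276 CPM in cTEC and 1604 ± 279 CPM in mTEC at P0 (edgeR adjusted p = 0.531) and 1024 ± 208 against 2445 ± 373 CPM at 4 weeks, where it was called and the groups stood apart. Krt15 was found in 1 of 6 cTEC libraries at P0, at 0.48 CPM, and stood at 42.8, 69.4 and 131.97 CPM in mTEC. At 4 weeks Krt15 stood at 0 to 3.66 CPM in cTEC and 23.7 to 164.4 CPM in mTEC.

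All 11 suprabasal and mucosal keratins were called higher in mTEC at both ages, where 29.2% and 26.4% of all genes were called higher. Krt2, Krt13, Krt16, Krt76, Krt78 and Krt79 were at 0 in all cTEC libraries at P0. They could pass the filter only through the groups where they were read, so this count is a description. The groups did not overlap in 10 of the 11 at P0 and in 7 at 4 weeks, and the share of all genes without overlap is not given here. Krt4, the type II keratin of mucosal suprabasal layers, stood at 87.5 ± 45.7 CPM in mTEC and 0.54 ± 1.33 CPM in cTEC at P0. Its partner Krt13 was much lower, at 7.80 ± 6.39 CPM in mTEC and 0 in cTEC. The epidermal pair overlapped in level at P0, with Krt1 at 15.6 ± 3.1 CPM and Krt10 at 11.9 ± 7.9 CPM in mTEC at P0, and at 55.4 ± 30.5 and 155.3 ± 126.6 CPM at 4 weeks. Krt10 was the only suprabasal member whose groups overlapped at P0. Krt77, a keratin of sweat gland ducts and embryonic epidermis, stood at 19.0 ± 6.7 CPM in mTEC at P0 and at 0.01 CPM in cTEC, where 1 count was found.

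Of the 16 hair follicle keratins, 15 passed the filter, and 15 were called higher in mTEC at P0 and 12 at 4 weeks. Of all genes, 29.2% and 26.4% were called higher. Krt28, Krt32, Krt35, Krt71, Krt72, Krt73, Krt75, Krt82, Krt83 and Krt84 were at 0 in all cTEC libraries at P0. They could pass the filter only through the groups where they were read, so these counts are a description. The groups did not overlap in 10 at P0 and in 5 at 4 weeks, and the share of all genes without overlap is not given here. Krt73 and Krt71, both of the inner root sheath, were at 0 in all cTEC libraries at P0 and at 42.8 ± 24.9 and 28.5 ± 11.8 CPM in mTEC, at least 911-fold and 606-fold higher. Krt73 was also at 0 in cTEC at 4 weeks. Krt81, Krt83 and Krt86, of the hair shaft, stood at 18.6, 21.6 and 14.6 CPM in mTEC at P0, but they are near-identical copies among which reads are hard to divide. Krt12, the type I keratin of the cornea, stood at 14.3 ± 4.9 CPM in mTEC and 1.24 ± 1.89 CPM in cTEC at P0, and Krt222 at 141 ± 28 and 2.81 ± 1.77 CPM. With every role present, each mTEC library at P0 held at least 32 of the 36 scarcer keratins and each cTEC library at most 8. At 4 weeks the gap was narrower, with 21 to 33 in an mTEC library and 8 to 15 in a cTEC library. The 21 came from replicate 3 of mTEC, the shallowest library with 5785352 counts, whose markers also stood apart as described further on.

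Msln, which mesothelium shares with mTEC, moved with this contrast, at 757 to 989 CPM in mTEC and 0 to 3.36 CPM in cTEC at P0. The whole list of 6 mesothelial markers summed to 832 to 1055 CPM in mTEC and to 0.83 to 8.14 CPM in cTEC, the 5 fibroblast markers to 377 to 496 and 15.5 to 126.5 CPM, and the 3 mural markers, which are mostly Rgs5, to 2180 to 3390 and 81.7 to 174 CPM. Their part in the keratin values was not tested. Kcnj8, a defining pericyte gene, was at 0 to 2.5 CPM in mTEC at P0.

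**Figure D3:**
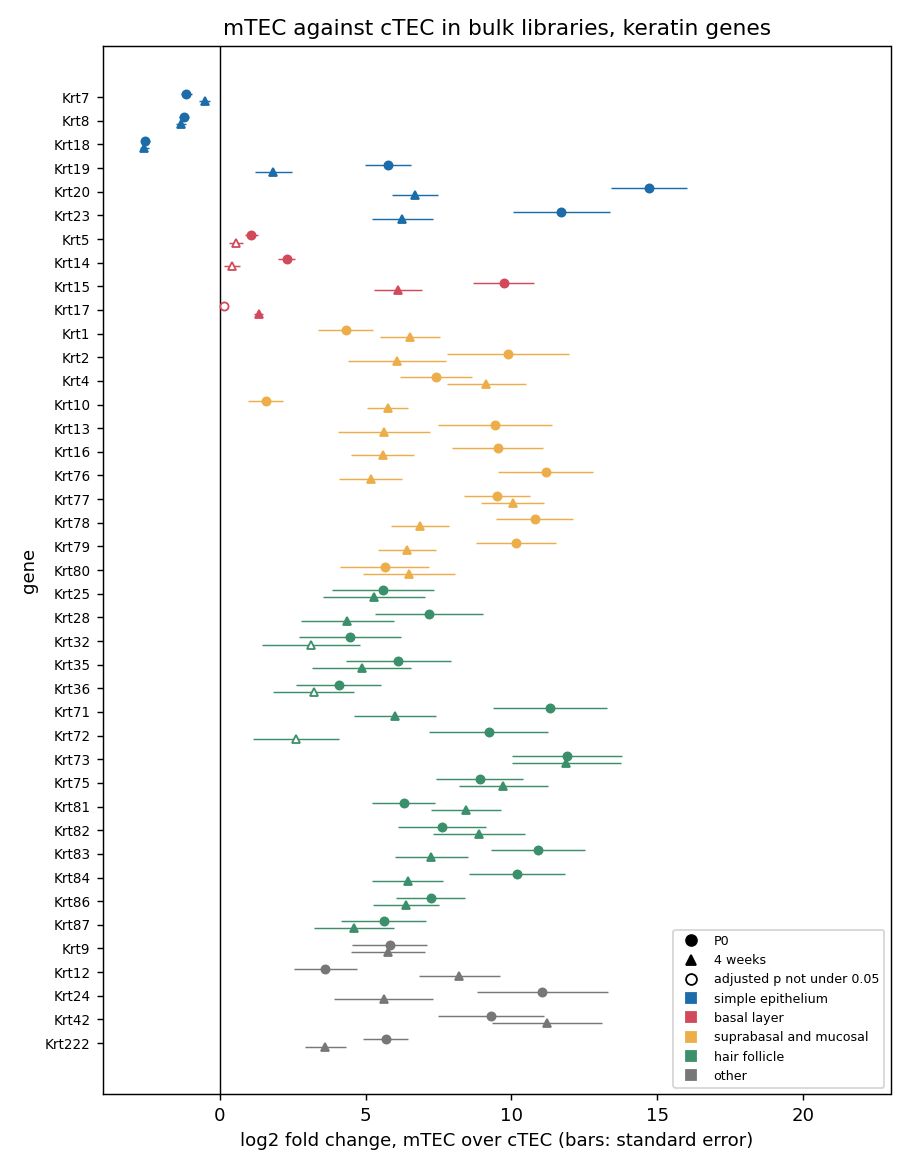
Log2 fold change of mTEC over cTEC (x axis, bars are the standard error) for the 41 keratins that passed the filter (y axis, coloured by role), at P0 (circles) and 4 weeks (triangles), with open symbols where the adjusted p was not under 0.05. Krt18, Krt8 and Krt7 lie left of 0 at both ages, and the suprabasal and hair follicle genes lie right of 0, where the fitted values of members at 0 in cTEC depend on the prior count.

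Within the medulla at 4 weeks, mTEChi were set against mTEClo. Here 15 members were higher and 4 lower in mTEChi, where 17.9% and 5.8% of all genes were called. The 4 lower members were Krt5, Krt14, Krt17 and Krt7. Krt5 stood at 79.7, 112.8 and 138.7 CPM in mTEChi (lowest, median, highest) and at 984, 1326 and 1806 CPM in mTEClo, 11.8-fold higher in mTEClo (log2 fold change -3.30 ± 0.25, edgeR adjusted p = 1.59e-11). Krt14 was 4.66-fold, Krt7 3.53-fold and Krt17 2.19-fold higher in mTEClo, and none of the 4 overlapped between the fractions. Krt8 did not pass the test, at 2283 ± 159 CPM in mTEChi and 2455 ± 228 in mTEClo, and Krt18 stood at 2519 ± 301 and 3902 ± 272 CPM with an edgeR adjusted p of 0.064, and it was called under DESeq2, its size factors, no filter, a fit of the 2 groups alone and a replicate block.

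Of the 15 higher members, 10 were hair follicle keratins, 2 suprabasal, 1 simple epithelial and 2 of other sites. Of these, 6 were at 0 in all mTEClo libraries (Krt9, Krt28, Krt32, Krt35, Krt72 and Krt82) and could pass the filter only through the groups where they were read, so the split by role is a description. With the 2 fractions fitted alone the higher members fell to 7, and to 9 with a replicate block. These fits called 2537 and 2345 of 15443 genes in either direction. Krt82, a keratin of the hair cuticle, was at 0 in all 6 mTEClo libraries and at 5.67 to 14.9 CPM in mTEChi, at least 211-fold higher. Krt35, Krt72 and Krt28 were also at 0 in mTEClo and at 4.73, 4.53 and 3.45 CPM in mTEChi, and Krt81 was 63.4-fold higher in mTEChi. Krt20 was 3.49-fold higher (407 ± 87 against 117 ± 76 CPM), with no overlap. The most abundant suprabasal members did not pass the test, among them Krt10 with 103.5 ± 49.5 and 77.99 ± 58.3 CPM and Krt1 with 46.05 ± 9.45 and 49.4 ± 50.6 CPM. Libraries of mTEClo varied widely for these genes, with Krt1 at 0 in 1 library and at 132.2 CPM in another. Aire stood at 193 to 284 CPM in mTEChi and at 16.0 to 96.1 CPM in mTEClo, and the chemokine gene Ccl21a at 502 to 672 and 7771 to 26967 CPM. The 2 erythroid markers summed to 92.4 to 759 CPM in mTEChi and 57.9 to 3999 CPM in mTEClo, and the 4 tuft-like markers to 104 to 181 and 139.2 to 935 CPM. Their part in the keratin values was not tested.

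**Figure D4:**
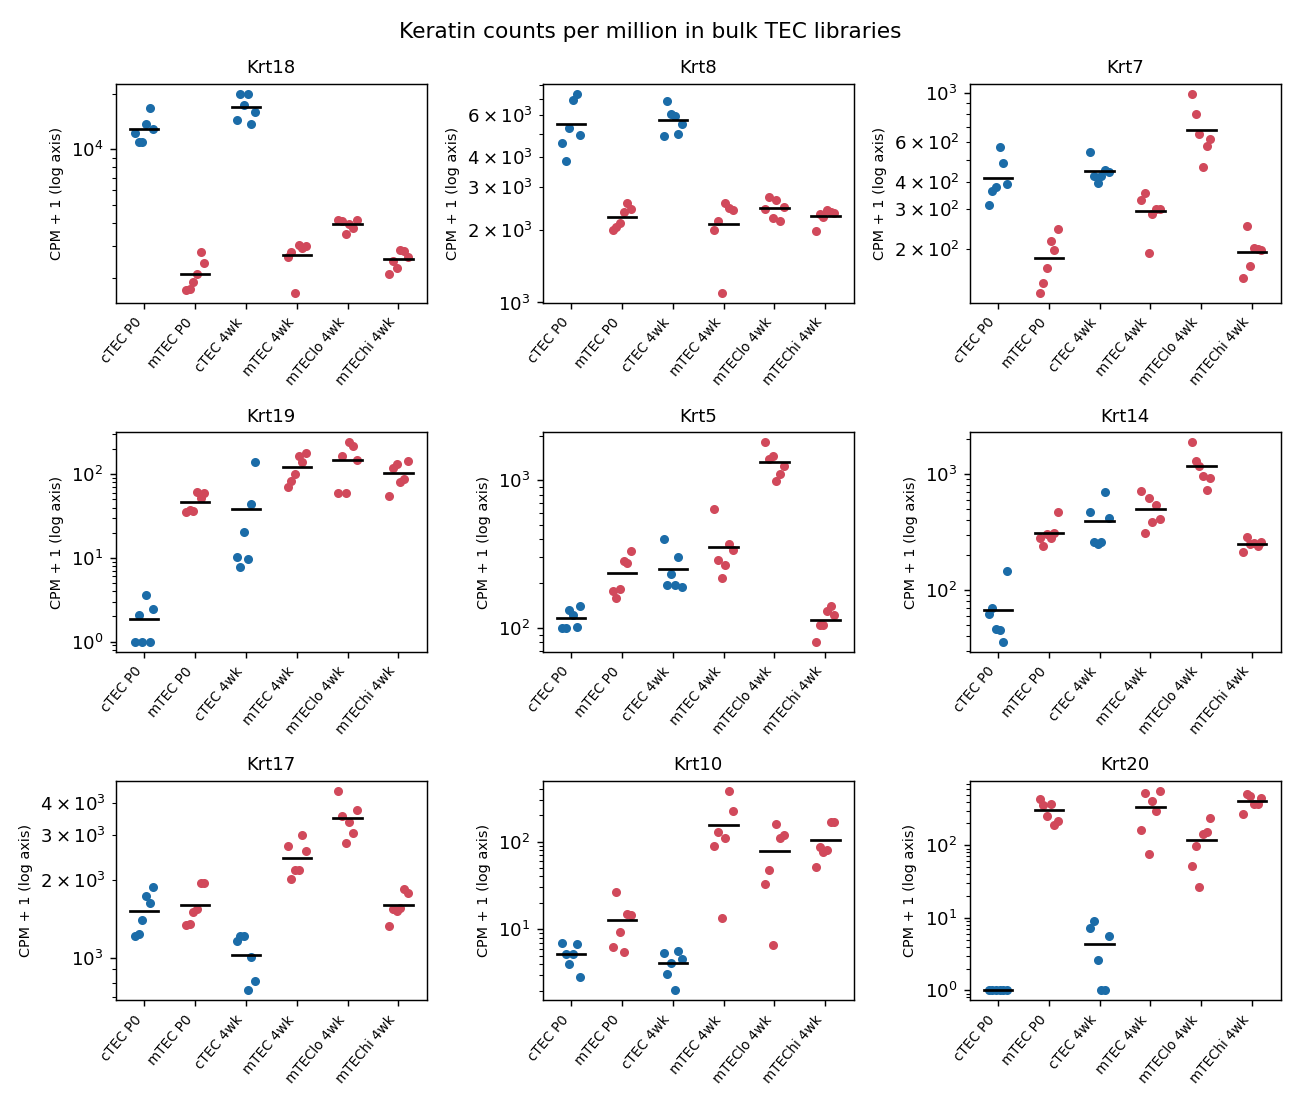
Levels of 9 keratins in bulk libraries (y axis, CPM plus 1 on a log axis) for cTEC (blue) and mTEC fractions (red) at P0 and 4 weeks, with 1 point per library and the mean of 6 libraries as a line. Krt18 and Krt8 are highest in cTEC, Krt5 and Krt14 are highest in mTEClo, and Krt20 is at 0 in every cTEC library at P0.

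From P0 to 4 weeks, 13 members rose and 2 fell in cTEC, where 10.1% and 4.0% of all genes were called. With only the 2 groups fitted, 9 members passed the filter, and 4 rose and 1 fell. That fit called 2902 of 13037 genes, 55.1% of them higher. Of the 4 basal keratins 3 rose, and Krt17, the most abundant of them, fell from 1513 ± 276 to 1024 ± 208 CPM. Krt14 stood at 34.9, 53.1 and 143.8 CPM at P0 and at 251, 336 and 696 CPM at 4 weeks, 5.90-fold higher (edgeR adjusted p = 4.38e-08), and Krt5 at 115.05 ± 18.3 and 252 ± 84.2 CPM. Neither overlapped between the ages. Krt18 was 1.31-fold higher and Krt17 1.48-fold lower at 4 weeks, and Krt12 fell from 1.24 to 0.04 CPM. Of the other members that rose, 9 stood under 4 CPM at 4 weeks. Krt19 rose from 0.86 ± 1.07 to 37.4 ± 50.9 CPM, with 138 CPM in replicate 6 and 6.80 to 42.8 CPM in the other 5 libraries.

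Replicate 6 of cTEC at 4 weeks stood apart, since its mesothelial list summed to 2714 CPM, against 16.7 to 639 CPM in the other 5, and Upk3b, a defining mesothelial gene, was at 1895 CPM there. Without this library Krt19 remained called between the ages, and 12 members were higher and 1 was lower at 4 weeks. That fit called 2127 of 19268 genes, 74.9% of them higher. The 6 thymocyte markers summed to 255 to 1078 CPM in cTEC at 4 weeks and to 5.63 to 25.2 CPM at P0, and the 10 mTEC markers, mainly Ccl21a, to 841 to 5774 and 199 to 496 CPM. Their part in the rise of Krt5 and Krt14 was not tested.

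In mTEC, 3 members were higher and none was lower at 4 weeks by edgeR, where 3.72% and 2.83% of all genes were called, and 13 of 41 members and 18.3% of all genes had an unadjusted p under 0.05. Krt10 stood at 4.46, 10.99 and 25.8 CPM at P0 and at 12.4, 117.9 and 374 CPM at 4 weeks, 13.0-fold higher (edgeR adjusted p = 0.000141), and its groups overlapped. Krt7 was 1.62-fold and Krt17 1.52-fold higher. Replicate 3 of mTEC at 4 weeks held the lowest Krt8, Krt18 and Krt10 of its group (1096, 1661 and 12.4 CPM) along with the lowest level of 3 epithelial markers (591 CPM, against 986 to 1152 CPM in the others) and the highest of 2 erythroid markers (3400 CPM). Without it, 6 members were called higher. By DESeq2 7 members were higher, and with only the 2 groups fitted 6 were higher and 1 lower. In this order, 1078 of 19317, 1866 of 18847 and 952 of 15883 genes were called in either direction.

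The difference between mTEC and cTEC itself changed with age for 5 members, 2 upwards and 3 downwards, where 1.24% and 3.54% of all genes were called in these directions. DESeq2 called 3 upwards and 8 downwards, and edgeR 2 and 5 without replicate 6 of cTEC at 4 weeks. In this order, 1606 of 18847 and 821 of 19268 genes were called in either direction. The difference grew for Krt10 by 4.18 ± 0.87 on the log2 scale and for Krt17 by 1.19 ± 0.21. It shrank for Krt14 (-1.89 ± 0.39), Krt19 (-3.94 ± 0.95) and Krt20 (-8.02 ± 1.73, a fitted value that depends on the prior count since Krt20 was at 0 in cTEC at P0).

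Genes that work with keratins were counted in the same fits from a list of 36 genes of desmosomes, hemidesmosomes and the cornified envelope, 35 of which were in the bulk table and 34 passed the filter. At P0, 17 were higher and 7 lower in mTEC, and at 4 weeks 18 and 7, against 29.2% and 8.28% of all genes at P0 and 26.4% and 11.5% at 4 weeks. The median log2 fold change of the list was 1.63 and 2.46, beside 0.35 and 0.24 over all genes. A partner gene near 0 in cTEC could pass the filter only through the groups where it was read, so these counts and medians are a description. Among desmosome genes, Dsp, which encodes desmoplakin, the link between keratin filaments and the desmosome, stood at 298 ± 46 CPM in cTEC and 69.5 ± 15.2 CPM in mTEC at P0, and Dsc3, a desmosomal cadherin, at 451 and 26.2 CPM. Among cornified envelope genes, Sprr1a stood at 53.1 CPM in mTEC and 1.48 CPM in cTEC at P0, and Krtdap at 3.30 and 0.19 CPM. Between mTEChi and mTEClo 3 of these genes were higher in mTEChi and 10 were lower (17.9% and 5.8% of all genes), Dsp and the hemidesmosomal integrin Itgb4 among the lower. From P0 to 4 weeks, 8 rose and 1 fell in cTEC (10.1% and 4.0% of all genes), and 7 rose and none fell in mTEC (3.72% and 2.83%), where Ly6d, a membrane protein of stratified epithelia, reached 261 CPM. The change of the difference with age was called for 3 upwards and 1 downwards (1.24% and 3.54% of all genes).

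The genotypes were compared in the 5 labels with at least 20 cells in every library, using UMIs summed per library. Crkl stood at 18.4 to 25.1 CPM over all cells in WT and at 23.6 to 26.9 CPM in Tbx1+/- Crkl+/-, and whether the tag read at the 3′ end lies in the deleted part of Crkl is not given in the sources used here, so it does not check the label. Tbx1 gave 6 to 19 UMIs per WT library and 0, 0 and 8 in the others. No member was called in PcTEC (9 tested), McTEC (7) or ItTEC (6), where edgeR called 0.0% of all genes, and DESeq2 called none. An unadjusted p under 0.05 was found for 1, 0 and 0 members there, and for 7.34%, 5.33% and 3.02% of all genes. The fitted log2 fold change was negative for each member tested in these 3 labels, with a median of -0.55, -0.49 and -0.49 beside 0.03, -0.0015 and 0.02 over all genes. Only Krt7 in PcTEC had groups that did not overlap, at 259 to 417 CPM in WT and 181 to 250.5 CPM in Tbx1+/- Crkl+/- (edgeR adjusted p = 0.643). In MmTEC 2 of 15 members were called, with 0.148% of all genes called, and in PrTEC 1 of 6, with 0.162%. The 2 members of MmTEC could pass the filter only through the WT libraries, so that count is a description. An unadjusted p under 0.05 was found for 5 of the 15 and 4 of the 6, and for 9.91% and 13.4% of all genes.

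In PrTEC, Krt14 stood at 271, 329 and 311 CPM in the 3 WT libraries and at 85.5, 105 and 70.2 CPM in the Tbx1+/- Crkl+/- libraries. All 3 WT libraries lay above all 3 others, with a log2 fold change of -1.80 ± 0.30 (edgeR adjusted p = 0.00302). Its partner Krt5 did not pass the test, at 258, 428 and 299 CPM in WT and 233, 107.7 and 93.6 CPM in Tbx1+/- Crkl+/- (-1.31 ± 0.33, edgeR adjusted p = 0.206). Without Tbx1+/- Crkl+/- replicate 3 the call on Krt14 was lost. The WT libraries of Krt5 lay above all others without a call, as did those of Krt17 and Krt7, at 1421 to 1772 against 649 to 1021 CPM and at 165.3 to 240.2 against 70.2 to 149.3 CPM. How many of all genes stood apart in this way in PrTEC is not given here, so the lack of overlap is a description. The median depth per PrTEC was 2808 to 4815 UMIs in WT and 2562 to 2956 UMIs in Tbx1+/- Crkl+/-, and its part in these values was not tested. The medullary gene Ccl21a moved with the genotype in PrTEC too, at 3954, 1728 and 1512 CPM in WT and 358, 255 and 116.9 CPM in Tbx1+/- Crkl+/-. Tbx1+/- Crkl+/- replicate 1 stood apart in red cell RNA, with Hbb-bs at 12069 CPM against 0 to 112.6 CPM in the other 5 libraries, and Krt14 remained called without it. The part of Ccl21a in the Krt14 difference was not tested.

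In MmTEC, Krt20 stood at 62.5, 150 and 112.8 CPM in WT and at 0, 12.03 and 17.5 CPM in Tbx1+/- Crkl+/- (log2 fold change -3.27 ± 0.53, edgeR adjusted p = 0.0264). Krt9, the type I keratin of the palm and sole, stood at 78.2, 45.1 and 35.3 CPM in WT and at 0, 4.81 and 0 CPM in the others (-4.23 ± 0.75, edgeR adjusted p = 0.0352). Both genes could pass the filter only through the WT libraries, so the count of 2 is a description. The groups did not overlap for either gene. They did not overlap for Krt16 either, at 255, 75.2 and 58.4 CPM in WT and 7.44, 19.2 and 0 CPM in the others, which was not called (-3.50, edgeR adjusted p = 0.105). How many of all genes stood apart in MmTEC is not given here. Both calls on Krt20 and Krt9 were lost when any 1 of the Tbx1+/- Crkl+/- libraries, or WT replicate 2, was left out, and that on Krt9 also without WT replicate 3. DESeq2 kept the call on Krt20 and gave no adjusted p for Krt9. Of the MmTEC, 52.2, 65.9 and 68.3% held a UMI of the 36 scarcer keratins in WT and 33.3, 45.5 and 29.0% in Tbx1+/- Crkl+/-. The WT libraries were also deeper, with medians of 3284 to 3913 UMIs per MmTEC against 2612 to 2844, and the part of depth was not tested. Aire overlapped between the genotypes, at 1338 to 2596 CPM in WT and 1617 to 2226 CPM in Tbx1+/- Crkl+/-.

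Mesothelium, the cell layer that covers the organ, was described in the age series, where 481 cells carried this label and 7 of the 8 libraries held at least 5 of them. Krt19 was its main keratin from E13.5 on, while at E12.5 Krt18 was close to it at 191.4 CPM. Krt19 stood at 194 CPM in the E12.5 library, 465 CPM at E13.5, 1460 CPM at E16.5, 1547 and 1251 CPM at P0 and 2207 and 2086 CPM at W4, higher in each later age than in every earlier library except between the E16.5 and P0 libraries. A UMI of Krt19 was found in 97.3% of the cells. Upk3b stood at 1028 to 1870 CPM in the same libraries, and the epithelial gene Epcam at 0 to 14.7 CPM. Msln, the other defining marker, was at 0 CPM at E12.5 and 20.3 CPM at E13.5 and stood at 432 to 1169 CPM from E16.5 on, and its part in the rise of Krt19 was not tested.

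Of the 41 members, 19 had a UMI in mesothelium. Krt18 stood at 191.4 CPM at E12.5, 73.7 CPM at E13.5 and 152 to 325 CPM from E16.5 on, and Krt8 at 79.5, 53.3 and then 88.5 to 279 CPM. Both were found together in 46.4% of the cells. Krt14 stood at 0 CPM at E12.5, 5.08 CPM at E13.5 and 37.9 to 116.8 CPM later, without its partner Krt5, which had 1 UMI in all 481 cells. Krt7 was highest at E16.5 with 689 CPM, in 5 cells, against 106.7 to 278 CPM in the libraries of the other ages. Krt76, a type II keratin of the palate, was at 0 up to E16.5 and at 8.77 and 18.6 CPM at W4. Type I UMIs stood to type II UMIs at 4.85 over all cells.

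Endothelium and capsular fibroblasts of the age series held little of these genes, with Krt19 at 0.70 ± 1.04 CPM in EnC and 0.88 ± 0.96 CPM in CapFb1b, whereas Krt10 stood at 29.6 ± 4.1 CPM in CapFb1b and at 32.6 CPM on average in mesothelium. Over the ages, 5 of 6 members that could be tested were called by edgeR, where 33.9% of all 8139 genes were called. Only 5 libraries held at least 20 mesothelial cells, so 3 of the 4 ages tested had 1 library, E16.5 was absent, and the single libraries were assumed to vary like the 2 at W4. With 1 residual degree of freedom, these calls give little beyond the values above. DESeq2 kept Krt8, Krt14, Krt18 and Krt19 but gave an adjusted p of 0.988 for Krt7, and Krt10 was not called by either.

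**Figure D5:**
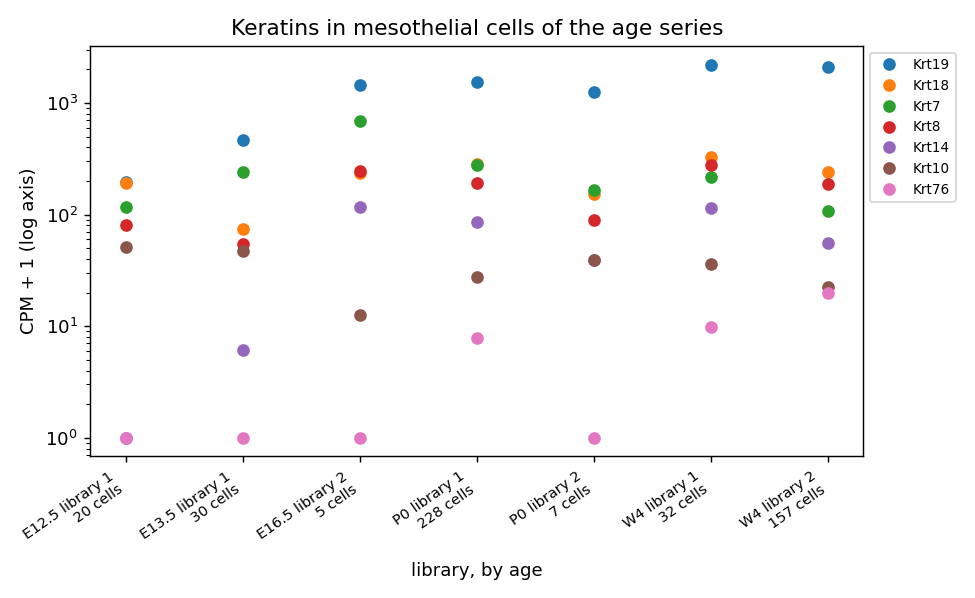
Levels of 7 keratins in mesothelial cells of the age series (y axis, CPM plus 1 on a log axis) in the 7 libraries with at least 5 such cells (x axis, by age, with the number of cells). Krt19 is the highest of the 7 in every library, though at E12.5 Krt18 is close to it (191.4 CPM), and it rises from 194 CPM at E12.5 to 2207 and 2086 CPM at W4.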

How the data were processed

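Per the labels and the methods of the study, the authors made the UMI counts with Cell Ranger 3.1.0, removed doublets with DoubletFinder, kept cells with over 1000 genes and under 5% mitochondrial reads, and labelled them in Seurat. The deposited newborn cells held as few as 876 genes. The authors deposited bulk counts per gene from HTSeq after STAR 2.5.3a, where the strand setting is not given in the sources used here, so reads of a keratin and an overlapping antisense gene cannot be told apart (Krt5, Krt7, Krt8, Krt10, Krt12, Krt32, Krt75, Krt76 and Krt80). HTSeq entries of no gene (10.2 to 15.6% of bulk counts) were left out. All columns were matched to samples.

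Bulk genes were kept by filterByExpr, scaled by TMM and tested over 36 libraries and 18847 genes with the quasi-likelihood test of edgeR 4.0.16 (limma 3.58.1, R 4.3.3) at a Benjamini-Hochberg adjusted p of 0.05. Single-cell UMIs were summed per label and library and tested the same way where every library held 20 cells. The scripts were tested on simulated data. DESeq2 1.42.0, its size factors, no filter, only the groups compared, the label prefix, single libraries left out and a replicate block were the alternatives. Python 3.11.15, numpy 2.4.6, pandas 2.3.3, scipy 1.17.1 and matplotlib 3.10.9 were used for the rest. Fold floors were 3 counts over a group.

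All members were described by role, and for each test up to 5 called members with the highest absolute log2 fold change were to be named. The members and lists were chosen with earlier results of these data known. No label ties bulk libraries to animals, so p-values measure the spread between libraries, which may be technical. Same-numbered newborn libraries were not treated as pairs in the main fits, and their deviations correlated at -0.47 to 0.11. Counting intervals and floors cover counting error only.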

Additional observations from a re-analysis of the deposited data

Results flagged for a closer look

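Of 96 groups of libraries examined, 9 held a library whose gap to its nearest neighbour was large for the range of its group, and chance flags about 1 in 20. In bulk libraries these were a high Krt5 in mTEC at 4 weeks (637 CPM), a low Krt8 in mTEChi (1974 CPM), a high Krt14 in cTEC (143.8 CPM) and in mTEC (465 CPM) at P0, a high Krt15 in cTEC (0.48 CPM) and in mTEC (131.97 CPM) at P0, a low Krt18 in mTEC at 4 weeks (1661 CPM) and a high Krt19 in cTEC at 4 weeks (137.6 CPM). In newborn MmTEC it was a low Krt18 (521 CPM, WT replicate 1).

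By the interaction term in edgeR, the mTEC minus cTEC log2 difference changed from P0 to 4 weeks for 5 members. It rose by 4.18 for Krt10 and by 1.19 for Krt17. The change was -1.89 for Krt14, -3.94 for Krt19 and -8.02 for Krt20.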

How the results depend on the processing

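No result was reversed under an alternative that was run, and most counts of calls stayed within 1.5 times. With only the libraries of the 2 groups compared, 12 members were called between mTEChi and mTEClo (7 higher and 5 lower in mTEChi) and 5 in cTEC over age, where fewer genes passed the filter, 7 in mTEC over age (6 higher and 1 lower), and 21 higher and 3 lower between mTEC and cTEC at 4 weeks. In mTEC over age 5 were called with DESeq2 size factors and 7 by DESeq2, which called 11 for the change of the difference with age (3 upwards and 8 downwards). Without a filter 1 member was called between genotypes in ItTEC, 5 in MmTEC and 3 in PrTEC, and DESeq2 called 1 in MmTEC. The cause of these changes was not tested. Leaving out 1 library gave 0 to 3 calls in MmTEC (0 without any 1 Tbx1+/- Crkl+/- library) and 0 to 2 in PrTEC (2 without Tbx1+/- Crkl+/- replicate 1, 0 without replicate 3).

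Leaving out replicate 6 of cTEC or replicate 3 of mTEC at 4 weeks, chosen after seeing the data, gave 3 to 6 calls in mTEC over age and 2 to 5 partner genes for the change of the difference. The share of higher calls among all genes fell from 77.9% to 62.5% at P0, from 75.6% to 62.002% for mTEChi and from 71.6% to 55.1% in cTEC over age when only the 2 groups were fitted.

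The share of cells with Krt5 and Krt8 was 6.33% in PcTEC, 12.3% in McTEC, 23.2% in ItTEC, 5.23% in MmTEC and 8.43% in PrTEC at 1000 UMIs per cell, and 16.4% in PcTEC and 15.7% in MmTEC without thinning, so these shares moved with depth. With a replicate block from the sample number modulo 12, 31 members were higher and 3 lower in mTEC at P0, 22 and 3 at 4 weeks, and 9 higher and 5 lower in mTEChi. In this order, 6584 of 14901, 3061 of 14153 and 2345 of 15443 genes were called in either direction. The highest correlation between deviations of same-numbered samples was 0.05, but 3, 3 and 4 of 6 correlated best with their own number. Whether the number pairs the bulk samples is thus not settled by these values. Between genotypes the replicate block gave 3 calls in MmTEC and 1 in PrTEC.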
